A study of Homo sapiens with 8 samples.

Results

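The RNA levels of 10 genes of the YAP/TEAD module were followed in hTERT-RPE1, an established human line of retinal pigment epithelium made immortal by telomerase, in interphase and in mitosis, without and with immunoprecipitation (IP) of hnRNP U. The genes were chosen by name: the transcriptional co-activators YAP1 and WWTR1 (which encodes TAZ), their DNA-binding partner TEAD1, and 7 genes known as targets or regulators of these factors, CTGF, CYR61, ANKRD1, AXL, AMOTL1, AMOTL2 and LATS2. All 10 were found among the 13471 genes of the table. The 8 libraries form 4 groups of 2. Interphase cells were held for 24 h in 2 mM thymidine, which stalls DNA replication. Mitotic cells received the same 24 h block in 2 mM thymidine, 6 h in medium without it, and then S-Trityl-L-cysteine (STLC), which blocks Eg5, the kinesin that separates the spindle poles, overnight. In each phase, RNA was sequenced from samples without IP and from an IP with an anti-hnRNP U antibody. hnRNP U, also called SAF-A, is an abundant nuclear protein that binds RNA and DNA. All cells therefore had a thymidine block, and the interphase group is a population arrested by it rather than an unsynchronized culture. No control IP was analysed here, so RNA bound by hnRNP U and RNA carried over on the beads cannot be told apart. The labels do not say whether replicates came from separate cultures, so the p-values measure the spread between these libraries, which may be technical.

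YAP and TAZ have no DNA-binding domain of their own and act on genes through TEAD proteins. When the Hippo kinases LATS1 and LATS2 phosphorylate YAP and TAZ, these are held in the cytoplasm or degraded. When cells spread on a stiff surface, YAP and TAZ enter the nucleus and TEAD target genes are transcribed. Several of the targets encode matricellular proteins (CTGF, CYR61) or inhibitors that act back on the pathway (LATS2, AMOTL2). Adherent cells round up in mitosis and transcription is largely shut off while the chromosomes are condensed. An arrest in STLC prolongs that state.

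Values are FPKM, fragments scaled by transcript length and by the mapped fragments of the library, as deposited by the authors. The total depth is unknown; the steps between low values put the libraries at 0.639 to 1.19 of the depth of interphase without IP replicate 1, both ends being mitotic IP libraries. Across genes, the replicates of a group correlated at 0.989 to 0.995 (Pearson's r on the log2 scale). The 10 genes with the highest values took 58.4% to 63.0% of the FPKM sum without IP and 12.4% to 20.6% in the IP. All 7 listed markers of late G2 and mitosis were called higher in mitosis without IP, and 3 of 5 markers of G1 and S phase lower. Of 12 listed markers of retinal pigment epithelium 5 were found. Their summed level without IP was 24.7 to 25.5 FPKM in interphase and 14.9 to 15.5 FPKM in mitosis, with MITF, OTX2 and RDH5 expressed and PMEL and LRAT below 0.18 FPKM on average in both. The other listed markers, RPE65, RLBP1, BEST1, TYR, TYRP1, SERPINF1 and TTR, were not found by symbol among the genes of the table, so their levels cannot be given. Of 12 markers of other cell types 1 was found, the tubulin gene TUBB3. Its level without IP was 80.1 to 88.9 FPKM in interphase and 92.4 to 95.7 FPKM in mitosis.

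In interphase without IP, the levels of the 10 genes spanned from 5.26 FPKM for LATS2 to 281 FPKM for ANKRD1 (means of 2 libraries). FPKM is scaled by length, so levels can be set beside each other between genes. ANKRD1 and AXL stood highest, and their values overlapped (259 to 304 FPKM and 255 to 293 FPKM). CYR61 followed at 61.8 to 70.8 FPKM, then YAP1 at 47.7 to 48.2 FPKM. CTGF, at 31.5 to 38.8 FPKM, and TEAD1, at 30.7 to 35.4 FPKM, overlapped. Below them, without overlap, lay WWTR1, AMOTL1, AMOTL2 and LATS2. In mitosis without IP, ANKRD1 and AXL again stood highest and overlapped, and TEAD1 stood next, above YAP1 without overlap. CTGF had moved to the bottom, where its values of 10.8 and 5.05 FPKM overlapped those of LATS2. Relative to all genes, the mean level of CTGF was above that of 85.9% of genes in interphase and of 52.4% in mitosis.

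**Figure D1:**
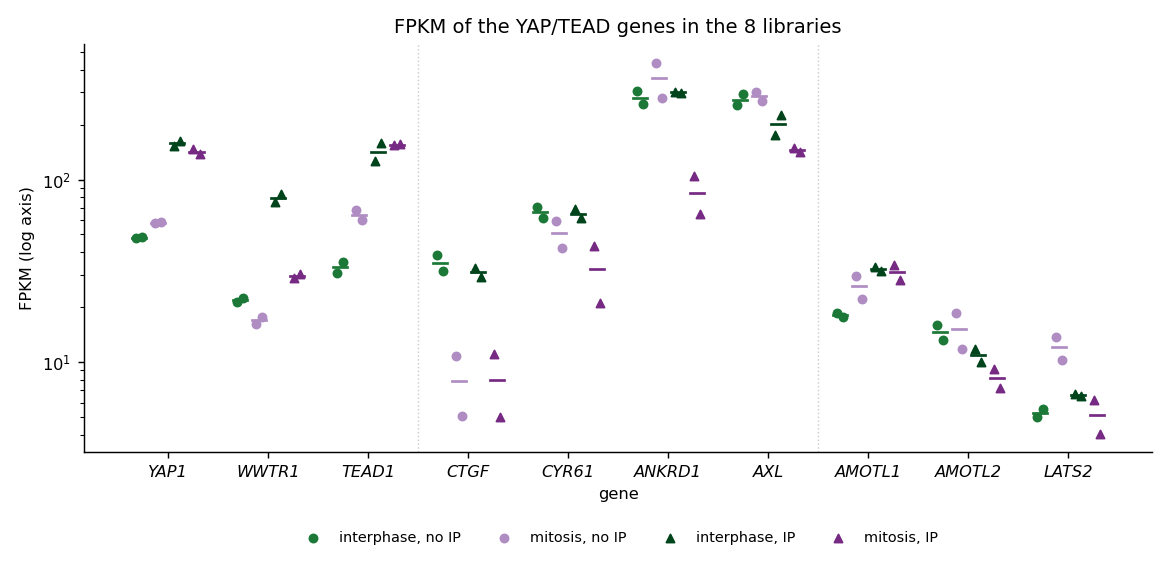
FPKM (log axis) of the 10 genes in each of the 8 libraries. Each point is a library, circles without IP and triangles with IP, and the bars are means of 2. CTGF is low in the 4 mitotic libraries, ANKRD1 is low in the mitotic IP only, and YAP1, WWTR1 and TEAD1 are high in the IP.

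The comparison of mitosis with interphase without IP asks whether the levels of these RNAs differ between arrested adherent cells and rounded mitotic cells. CTGF fell by 2.09 on the log2 scale, LATS2 and TEAD1 rose by 1.05 and 0.93 on the log2 scale, AMOTL1 by 0.49, and WWTR1 fell by 0.35. YAP1, CYR61, ANKRD1, AXL and AMOTL2 did not pass the test. With limma (adjusted p below 0.05 over all genes), 5 of the 10 genes were called, 3 higher and 2 lower. Of all genes 51.7% were called (26.2% higher, 25.5% lower), so this share is close to the background. The median log2 fold change of the 10 genes was 0.16, against -0.0023 for all genes. In bulk RNA, fewer cells with a transcript and less of it per cell cannot be told apart.

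The factors themselves moved in different directions. TEAD1 lies at chr11:12674591-12944483 (GRCh38, with all gene intervals here as annotated in GENCODE). It had 30.7 and 35.4 FPKM in interphase and 68.0 and 59.7 FPKM in mitosis without IP. Both mitotic values lay above both interphase values, which gave a log2 fold change of 0.93 (standard error, SE, 0.14, limma adjusted p = 0.000783). WWTR1, at chr3:149517235-149736714, had 21.2 and 22.5 FPKM in interphase and 16.2 and 17.6 FPKM in mitosis. These groups did not overlap either, and the log2 fold change was -0.35 (SE 0.10, limma adjusted p = 0.0162). The call was lost without interphase replicate 2 (-0.31, adjusted p = 0.0994) and without mitosis replicate 1 (-0.30, adjusted p = 0.103). YAP1, at chr11:102110461-102233423, had 47.7 and 48.2 FPKM in interphase and 57.6 and 58.4 FPKM in mitosis. Its log2 difference of 0.27 (SE 0.10) missed the threshold (limma adjusted p = 0.0533, 95% interval 0.04 to 0.50). It passed in a fit of these 2 groups alone (adjusted p = 0.0395), but was 0.051 (adjusted p = 0.679) with length and GC trends removed and 0.19 (adjusted p = 0.173) with median centring.

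CTGF encodes connective tissue growth factor, a secreted matricellular protein and a standard readout of YAP activity. The gene lies at chr6:131948176-131951373. Its values were 38.8 and 31.5 FPKM in interphase and 10.8 and 5.05 FPKM in mitosis without IP. The groups were far apart, although the 2 mitotic libraries also differed from each other. The log2 fold change was -2.09 (SE 0.36, limma adjusted p = 0.00146), and 0.653% of all genes had a lower one. CYR61 encodes a second secreted protein of the same family and lies at chr1:85580761-85583962. It had 70.8 and 61.8 FPKM in interphase and 59.6 and 42.2 FPKM in mitosis. Both mitotic values were lower, but the log2 difference of -0.39 did not exceed the spread between replicates (SE 0.29, limma adjusted p = 0.286). The interval of this difference, -1.05 to 0.27, excludes the size seen for CTGF.

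ANKRD1 encodes an ankyrin-repeat protein of the nucleus and sarcomere and lies at chr10:90912096-90921276. It had 304 and 259 FPKM in interphase and 437 and 280 FPKM in mitosis without IP, so the groups overlapped. The log2 difference was 0.32 (SE 0.26, limma adjusted p = 0.343), and without mitosis replicate 1 it was -0.0034. AXL, which encodes a receptor tyrosine kinase for GAS6, lies at chr19:41219203-41261766. It had 255 and 293 FPKM in interphase and 302 and 268 FPKM in mitosis, again with overlap. Its log2 difference of 0.058 had an interval of -0.32 to 0.44.

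Among the regulators, LATS2 encodes a Hippo kinase that phosphorylates YAP and TAZ and is itself a YAP target. The gene lies at chr13:20973032-21061547. It had 4.99 and 5.53 FPKM in interphase and 13.8 and 10.3 FPKM in mitosis without IP. The groups did not overlap, and the log2 fold change was 1.05 (SE 0.19, limma adjusted p = 0.00181). AMOTL1 and AMOTL2 encode angiomotin-like proteins that bind YAP at cell junctions. AMOTL1, at chr11:94706431-94876753, had 18.5 and 17.6 FPKM in interphase and 29.7 and 22.2 FPKM in mitosis. Its rise of 0.49 on the log2 scale (SE 0.15, limma adjusted p = 0.022) was lost after quantile normalization (0.40, adjusted p = 0.0558). It was also lost when the dependence on transcript length and GC content was taken out (0.29, adjusted p = 0.0872) and, among single libraries, without interphase replicate 1 or 2 or mitosis replicate 1 (adjusted p = 0.0653, 0.101 and 0.16). AMOTL2, at chr3:134355874-134375479, had 15.9 and 13.2 FPKM in interphase and 18.6 and 11.8 FPKM in mitosis. The mitotic values lay on either side of the interphase values.

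**Figure D2:**
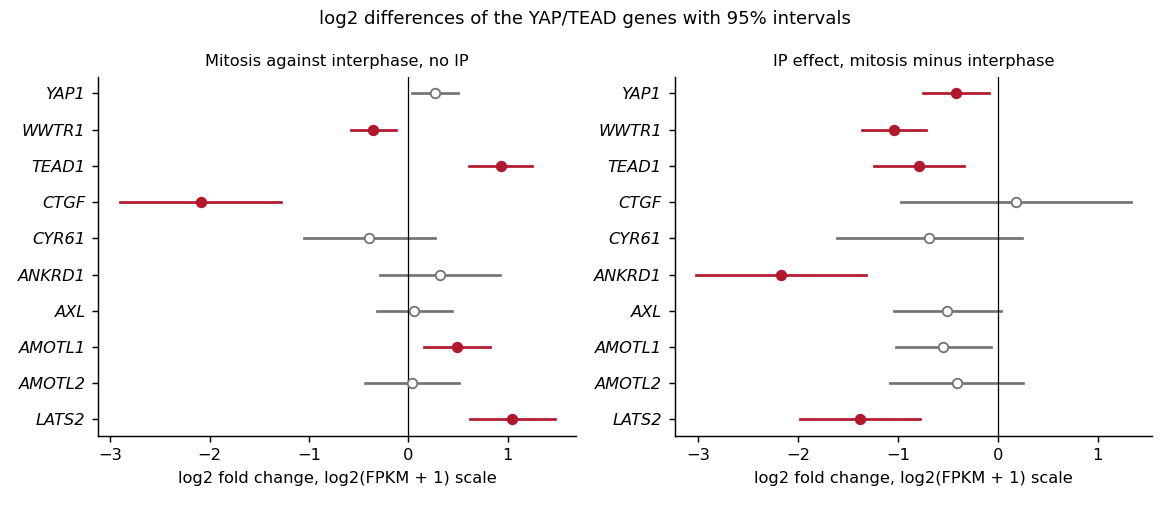
log2 differences of the 10 genes with 95% intervals from limma, on the log2(FPKM + 1) scale, for mitosis against interphase without IP (left) and for the effect of the IP in mitosis minus that in interphase (right). Filled red points are called at an adjusted p below 0.05; on the left CTGF stands at -2.09, and on the right ANKRD1 stands at -2.17.

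The mitotic replicates of several of these genes differed in the same way with and without IP. In 7 of the 10 genes (all but YAP1, WWTR1 and TEAD1), mitosis replicate 1 was higher than replicate 2 in both kinds of library. The same held for 35.2% of all genes. For CTGF the values of 10.8 and 5.05 FPKM without IP were matched by 11.1 and 4.99 FPKM in the IP. The relative depths were 0.861 and 1.08 without IP and 0.639 and 1.19 in the IP, and their part in this pattern was not tested.

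CTGF and ANKRD1 are both textbook TEAD targets, and bases before their starts are shown as a description. Without IP, CTGF differed between the phases and ANKRD1 did not pass the test (0.32, limma adjusted p = 0.343). What differed for ANKRD1 was the effect of the IP, given below. TEAD proteins bind the motif GGAATG, which reads CATTCC on the opposite strand. Both strands of windows from 250 bases before to 50 bases after each start were searched in the RefSeq promoter table (GRCh38.p14). Of the bases before the RefSeq start, those outside the GENCODE interval of the gene are printed 5′ to 3′ on the gene's strand, with each match in capitals. They are 249 bases for CTGF, chr6:131951374-131951622, and 61 bases for ANKRD1, chr10:90921277-90921337, both on the minus strand. The RefSeq start of ANKRD1 lies inside its GENCODE interval, so the remaining 189 bases, with 1 of its matches, are not printed.
CTGF: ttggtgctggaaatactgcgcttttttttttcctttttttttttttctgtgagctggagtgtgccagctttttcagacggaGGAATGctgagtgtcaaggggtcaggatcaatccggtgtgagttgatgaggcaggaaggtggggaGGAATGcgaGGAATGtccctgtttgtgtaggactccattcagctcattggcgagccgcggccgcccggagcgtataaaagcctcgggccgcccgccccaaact
ANKRD1: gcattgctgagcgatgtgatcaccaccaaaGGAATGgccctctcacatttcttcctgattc
CTGF held 3 matches, whose first bases are at -169, -104 and -95 counted from the start. ANKRD1 held 2, at -220, which is printed, and at -128, inside the GENCODE interval. The table had an entry for 8 of the 10 genes, and CYR61 and TEAD1 had none. At least 1 window of 6 genes held a match (CTGF, ANKRD1, LATS2, YAP1, AXL and AMOTL2), and AMOTL1 and WWTR1 held none. Counted by window, 6 of 11 held a match, against 14.0% of all 35116 windows. For AXL and AMOTL2 the match lay in the window of a further start inside the GENCODE interval, and their other window held none. The genes were chosen as known factors, targets or regulators, so this contrast is not a test. A match describes these letters and is no measurement of binding.

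The IP comparisons set the level of each RNA in the hnRNP U IP against its level in the RNA without IP. FPKM is scaled within each library, so these are relative levels, and the amount of an RNA recovered in the IP is not measured. In interphase, the transcripts of the 3 factors had the largest excess among the 10 genes. TEAD1, WWTR1 and YAP1 rose, AMOTL1 rose less and AXL fell. CTGF, CYR61, ANKRD1, AMOTL2 and LATS2 did not pass the test. Limma called 5 of the 10 genes, 4 higher and 1 lower, against 74.6% of all genes (37.6% higher, 37.0% lower). The split was 4 higher and 0 lower after centring on the library medians, and 6 higher and 0 lower after quantile normalization. Both settings also moved the whole table. All genes had 5068 higher and 4983 lower before, 5778 and 4499 after centring, and 5562 and 4569 after quantile normalization. The median log2 fold change of the 10 genes was 0.19, and that of all genes 0.017.

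TEAD1 had 30.7 and 35.4 FPKM without IP and 126 and 158 FPKM in the interphase IP. The values in the IP were 4.10 and 4.46 times those of the same-numbered library without IP. The log2 fold change was 2.06 (SE 0.14, limma adjusted p = 2.11e-06), and 0.92% of all genes had a higher one. WWTR1 went from 21.2 and 22.5 to 75.6 and 83.7 FPKM, with a log2 fold change of 1.82 (SE 0.10, limma adjusted p = 7.95e-07). YAP1 went from 47.7 and 48.2 to 153 and 163 FPKM, with a log2 fold change of 1.70 (SE 0.10, limma adjusted p = 1.2e-06). For all 3 factors the groups were separated by a wide gap. AMOTL1 rose from 18.5 and 17.6 to 33.1 and 31.4 FPKM, a ratio of 1.79 in each replicate (log2 fold change 0.81, limma adjusted p = 0.000888).

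The secreted factors and ANKRD1 showed no difference in interphase that exceeded the spread between replicates. CTGF had 32.8 and 29.2 FPKM in the IP, a log2 difference of -0.17 with an interval of -0.98 to 0.64. CYR61 had 68.9 and 61.3 FPKM (-0.024, interval -0.68 to 0.63). ANKRD1 had 301 and 300 FPKM (0.098, interval -0.50 to 0.70). After quantile normalization the ANKRD1 difference was 1.07 with an adjusted p of 0.00322. AXL fell to 176 and 226 FPKM, a log2 fold change of -0.45 (SE 0.17, limma adjusted p = 0.0331). That call did not hold: quantile normalization turned the difference to 0.31 (adjusted p = 0.142), and the call was lost after median centring (-0.33, adjusted p = 0.112), in a fit of these 2 groups alone (adjusted p = 0.0597) and with length and GC trends removed (-0.11, adjusted p = 0.584). Leaving out interphase IP replicate 1 (-0.27, adjusted p = 0.172), interphase replicate 1 without IP (-0.55, adjusted p = 0.053) or interphase replicate 2 without IP (-0.36, adjusted p = 0.18) also ended it.

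In mitosis the 3 factors were again higher in the IP, whereas ANKRD1 and LATS2, and to a lesser extent AXL and AMOTL2, were lower. Limma called 7 of the 10 genes, 3 higher and 4 lower, against 64.5% of all genes (32.8% higher, 31.7% lower). The median of the 10 genes was -0.35, and that of all genes 0.0053. TEAD1 had 154 and 157 FPKM in the IP against 68.0 and 59.7 FPKM without it, a log2 fold change of 1.27 (SE 0.14, limma adjusted p = 6.4e-05). YAP1 had 147 and 138 FPKM against 57.6 and 58.4 FPKM, a log2 fold change of 1.28 (SE 0.10, limma adjusted p = 1.45e-05). WWTR1 had 28.7 and 30.6 FPKM against 16.2 and 17.6 FPKM, a log2 fold change of 0.78 (SE 0.10, limma adjusted p = 0.000154). The values of all 3 in the IP lay above those without IP in both replicates.

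ANKRD1 had the lowest IP effect of the 10 in mitosis. It had 437 and 280 FPKM without IP and 105 and 65.0 FPKM in the IP. The ratios of IP to no IP were 0.239 and 0.232 in mitosis, against 0.990 and 1.16 in interphase. The log2 fold change in mitosis was -2.07 (SE 0.26, limma adjusted p = 0.000149), and 0.846% of all genes had a lower one. LATS2 fell from 13.8 and 10.3 FPKM to 6.16 and 4.06 FPKM (log2 fold change -1.10, SE 0.19, limma adjusted p = 0.000768). AXL fell from 302 and 268 FPKM to 149 and 142 FPKM (log2 fold change -0.96, SE 0.17, limma adjusted p = 0.000867). For these genes the groups did not overlap. AMOTL2 had 9.21 and 7.18 FPKM in the IP against 18.6 and 11.8 FPKM (log2 fold change -0.80, limma adjusted p = 0.00828). The AMOTL2 call was lost without mitotic IP replicate 2 (-0.64, adjusted p = 0.0542), without mitosis replicate 1 (-0.49, adjusted p = 0.0589) and with length and GC trends removed (-0.40, adjusted p = 0.0765). CYR61 had 43.2 and 21.1 FPKM in the IP against 59.6 and 42.2 FPKM, a log2 difference of -0.71 that missed the threshold (limma adjusted p = 0.0569). The groups overlapped, and the difference passed without mitotic IP replicate 1 (-1.21, adjusted p = 0.00134), without mitosis replicate 2 (-0.96, adjusted p = 0.0416) and after quantile normalization (-0.91, adjusted p = 0.0199). CTGF, with 11.1 and 4.99 FPKM in the IP, and AMOTL1, with 34.1 and 28.0 FPKM, had log2 differences of 0.011 and 0.26, and AMOTL1 passed the test only without mitosis replicate 1 among the single libraries left out (0.46, adjusted p = 0.0291).

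The change of the IP effect between the phases was tested directly as an interaction. In 9 of the 10 genes the log2 effect of the IP was lower in mitosis than in interphase, CTGF being the exception at 0.18 (-0.31 with length and GC trends removed). Among all genes 45.7% had a lower effect in mitosis. Limma called 5 of the 10 genes, all 5 with a lower effect, where 47.1% of all genes were called in either direction, 27.2% with a higher and 19.9% with a lower effect. The median of the 10 genes was -0.62, and that of all genes 0.065. The interaction shares its libraries with the 2 IP comparisons and with that of the phases without IP, so they are not independent.

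ANKRD1 had the most negative difference, -2.17 (SE 0.37, limma adjusted p = 0.00171), and 0.586% of all genes had a lower one. LATS2 followed with -1.38 (SE 0.26, limma adjusted p = 0.00286). The 2 genes reached it differently: ANKRD1 was at 301 and 300 FPKM in the interphase IP and 105 and 65.0 FPKM in the mitotic IP, while LATS2 had 6.70 and 6.48 FPKM and then 6.16 and 4.06 FPKM, with its rise in mitosis seen in the RNA without IP. WWTR1 changed by -1.04 (SE 0.14, limma adjusted p = 0.000519), TEAD1 by -0.79 (SE 0.20, limma adjusted p = 0.0106) and YAP1 by -0.42 (SE 0.14, limma adjusted p = 0.0404). The YAP1 call was lost in 7 of the 8 fits that left out a library (adjusted p = 0.0522 to 0.12), all but the one without interphase IP replicate 1. For AMOTL1 (-0.55), AXL (-0.51), CYR61 (-0.69) and AMOTL2 (-0.41) the difference did not pass the test. Without mitosis replicate 2, AMOTL1 reached -0.75 (adjusted p = 0.0161) and AMOTL2 -0.72 (adjusted p = 0.0476). AMOTL1 also passed without mitotic IP replicate 1 (-0.68, adjusted p = 0.037), and AXL without interphase IP replicate 1 (-0.69, adjusted p = 0.0349) and after quantile normalization (-1.09, adjusted p = 0.00695). CYR61 reached -1.19 (adjusted p = 0.00882) without mitotic IP replicate 1 and -1.14 (adjusted p = 0.0466) with length and GC trends removed.

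Set side by side, the ratio of mitosis to interphase for CTGF was 0.278 and 0.160 without IP and 0.338 and 0.171 in the IP, in replicates 1 and 2. Its low level in mitosis was thus seen in both kinds of RNA. For ANKRD1 the ratios were 1.44 and 1.08 without IP and 0.348 and 0.217 in the IP. For TEAD1 they were 2.21 and 1.69 without IP and 1.22 and 0.994 in the IP.

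**Figure D3:**
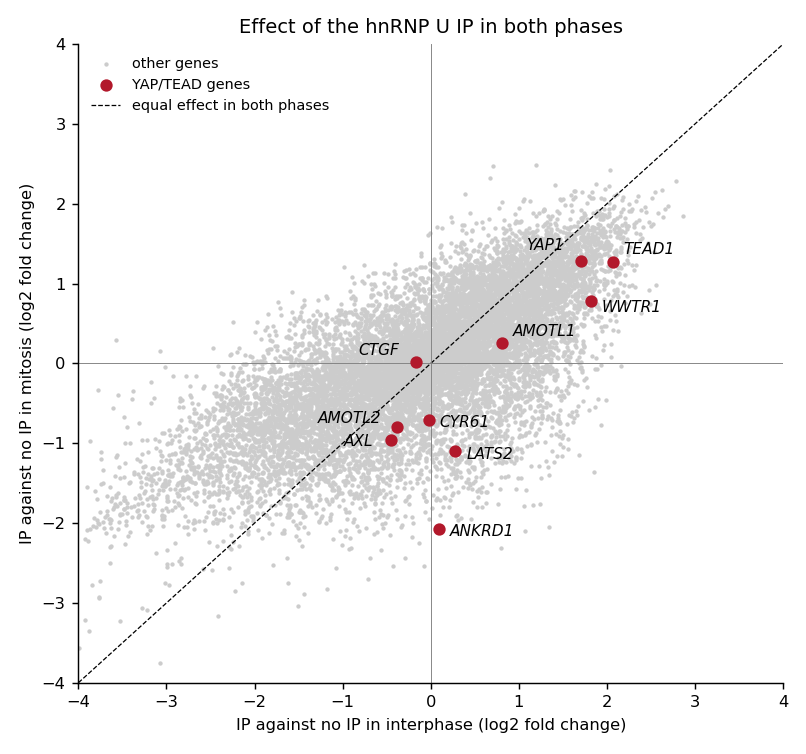
Effect of the IP in mitosis against that in interphase (log2 fold changes on the log2(FPKM + 1) scale), with the 10 genes in red and other genes in grey; genes beyond 4 in either direction lie outside the axes. All 10 genes except CTGF lie below the dashed line of equal effect, and ANKRD1 lies lowest at 0.098 in interphase and -2.07 in mitosis.

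Transcript composition moved with the IP effect across the table. Over 13137 genes matched to GENCODE, the interphase IP effect had a Spearman's rho of -0.71 with the GC content of the longest transcript and 0.53 with its length (across genes, which are not independent replicates). For the mitotic IP effect these were -0.56 and 0.28. They were 0.42 and -0.47 for the interaction, and -0.23 and 0.28 for mitosis against interphase without IP. WWTR1 (40.9% GC, 5030 nt), TEAD1 (41.3%, 8477 nt) and YAP1 (43.5%, 5398 nt) have 3 of the 4 lowest GC contents among the 10 genes. The remaining low-GC gene is ANKRD1 (43.3%), which at 1979 nt is also the shortest of the 10 and was not enriched. AMOTL2 (56.7%) and AXL (53.9%) have the highest GC contents. In the interphase IP, AMOTL2 did not pass the test (limma adjusted p = 0.123). AXL was called lower there, a call that did not hold under several alternatives. After removal of the length and GC trends, the interphase log2 fold changes were 0.97 for TEAD1, 0.97 for YAP1 and 0.93 for WWTR1, and all 3 still passed (limma adjusted p = 0.00015, 3.65e-05 and 3.21e-05). In mitosis they were 0.74, 0.91 and 0.29. The difference between phases then shrank to -0.23 for TEAD1 and -0.058 for YAP1, neither of which passed (adjusted p = 0.318 and 0.758). For ANKRD1 (-2.47), LATS2 (-1.32) and WWTR1 (-0.65) it still passed (adjusted p = 0.00124, 0.00249 and 0.00387).

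The TEAD paralogues, which share the DNA-binding domain of TEAD1, had other values. Without IP, TEAD2 was lower in mitosis (log2 fold change -0.48, SE 0.14, limma adjusted p = 0.0197), as was TEAD3 (-0.38, adjusted p = 0.0479), and TEAD4 did not pass (-0.0087). With length and GC trends removed, TEAD2 (-0.21, adjusted p = 0.281) and TEAD3 (-0.22, adjusted p = 0.143) no longer passed, and TEAD4 was called higher (0.46, adjusted p = 0.0255). In the interphase IP TEAD2 fell from 22.0 and 26.7 to 6.53 and 8.36 FPKM (log2 fold change -1.59, SE 0.14, limma adjusted p = 9.72e-06). TEAD4 fell from a mean of 11.2 ± 1.16 FPKM (SD, n = 2) to 2.78 and 3.55 FPKM (-1.55, SE 0.13, adjusted p = 7e-06), and TEAD3 fell by 0.45 on the log2 scale. All of these lay in the opposite direction to TEAD1. The paralogues' transcripts are shorter and richer in GC, 2440 nt and 58.4% for TEAD2, 2983 nt and 59.8% for TEAD3, and 1690 nt and 60.4% for TEAD4. With both trends removed the interphase effect was -0.34 for TEAD2 and 0.11 for TEAD4, neither of which passed (adjusted p = 0.084 and 0.539), and 0.66 for TEAD3 (adjusted p = 0.00115). The IP effect of all 3 was higher in mitosis than in interphase, by 1.45, 1.13 and 1.30 (limma adjusted p = 0.000567, 0.00196 and 0.000651), where that of TEAD1 was lower. With the trends removed these differences were 0.77, 0.59 and 0.36, and that of TEAD4 no longer passed (adjusted p = 0.178).

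**Figure D4:**
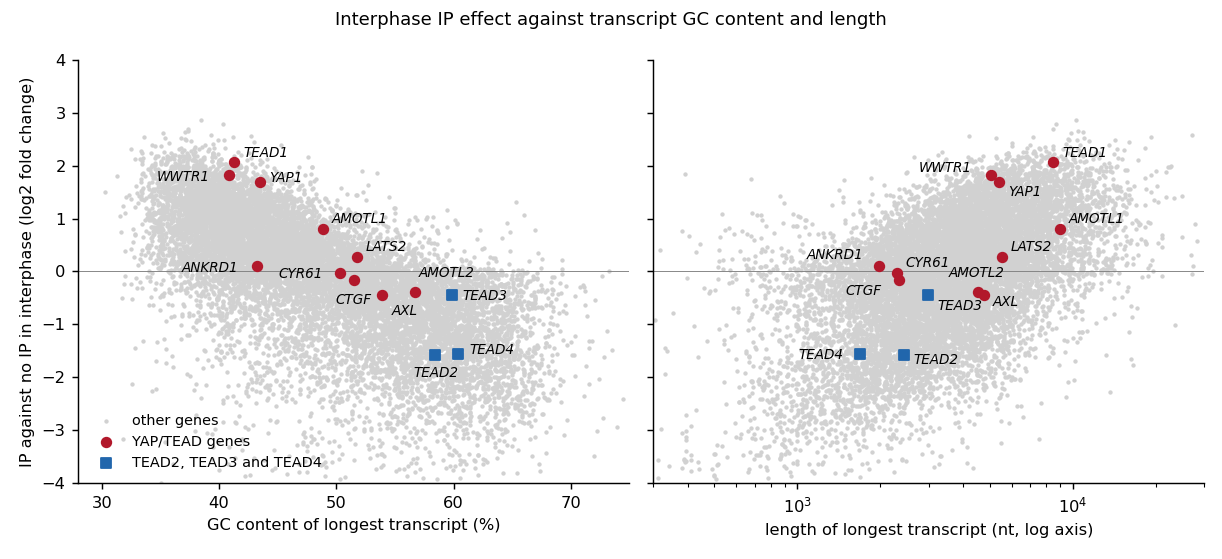
Effect of the IP in interphase (log2 fold change) against GC content (left) and length on a log axis (right) of the longest annotated transcript, with the 10 genes in red, TEAD2, TEAD3 and TEAD4 as blue squares and other genes in grey; genes outside the axes are not drawn. TEAD1 stands at 2.06 with 41.3% GC, and TEAD4 at -1.55 with 60.4% GC.

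The rest of the pathway was described through 3 lists. The Hippo kinase module and its adaptors, which restrain YAP and TAZ or regulate the kinases, had 24 of 24 genes in the table. Without IP 13 of them were called higher in mitosis, 1 lower and 10 not, with a median log2 fold change of 0.41, where 26.2% of all genes were higher and 25.5% lower. With length and GC trends removed, 9 were higher and 2 lower, where 26.7% of all genes were higher and 25.6% lower. LATS1, the paralogue of LATS2, rose from 3.83 and 4.19 FPKM to 10.8 and 9.68 FPKM (log2 fold change 1.16, SE 0.12, limma adjusted p = 0.000115). STRN3, a subunit of the phosphatase complex that acts on the Hippo kinases, rose by 0.95, and RASSF1, a scaffold of these kinases, by 0.78. Of the upstream kinases, STK4 rose by 0.64 (adjusted p = 0.00114), and STK3 had a difference of 0.052 (adjusted p = 0.834). NF2, which encodes the tumour suppressor merlin, rose by 0.42 (adjusted p = 0.0355). AMOT, the third angiomotin gene, had 1.01 FPKM in interphase and a difference of 0.15 (adjusted p = 0.497). The lowered gene was SAV1, the scaffold of the upstream kinases (-0.58), which was singled out after its value was seen.

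In the interphase IP 16 of the 24 module genes were higher and 4 lower, against 37.6% and 37.0% of all genes. With length and GC trends removed, 8 were higher and 4 lower, near the 33.8% and 27.8% of all genes in that setting. The interaction had 12 lower and 2 higher (median -0.66), against 19.9% and 27.2% of all genes. With the trends removed it had 11 lower and 0 higher, against 20.8% and 22.3% of all genes. MOB1B, an activator of the LATS kinases, and the kinase gene TAOK1 had the largest interphase effects, 2.40 and 2.23, followed by LATS1 at 1.83 (limma adjusted p = 1.09e-06, 1.27e-06 and 1.74e-06). With the trends removed these were 1.03, 0.91 and 0.68, and SAV1 stood highest at 1.34. In mitosis 10 were higher and 8 lower (32.8% and 31.7% of all genes). With the trends removed 5 were higher and 10 lower (33.8% and 28.8% of all genes). The largest effects in mitosis were MOB1B at 1.57, NF2 at -1.55 and STRN at 1.48. With the trends removed these were 0.79, -1.22 and 0.80, and TAOK3 had the largest at -1.42. WWC2 (-1.59), FRMD6 (-1.42) and TAOK3 (-1.30) had the largest differences between phases. With the trends removed these were -1.06, -0.99 and -1.07, and SAV1 (-1.16) and WWC3 (-1.16) stood lower.

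TEAD2, TEAD3, TEAD4 and the TEAD cofactor genes VGLL3 and VGLL4 were found of 7 listed genes. Without IP 1 rose in mitosis, VGLL3 (1.02, SE 0.18, limma adjusted p = 0.00158), and 3 fell, TEAD2, TEAD3 and VGLL4, against 26.2% and 25.5% of all genes. With length and GC trends removed 2 were higher, VGLL3 and TEAD4, and VGLL4 alone was lower (26.7% and 25.6% of all genes). VGLL4, which competes with YAP for TEAD, fell by 0.997 on the log2 scale. VGLL3 had an IP effect of 2.66 in interphase and 1.93 in mitosis, next to 2.06 and 1.27 for TEAD1. In the interphase IP 1 of the 5 was higher and 3 lower (37.6% and 37.0% of all genes). In the mitotic IP 2 were higher, VGLL3 and TEAD3 (0.68), and 1 lower, VGLL4 (-0.34), against 32.8% and 31.7% of all genes. With the trends removed 2 were higher and 0 lower in interphase (33.8% and 27.8% of all genes), and 4 and 0 in mitosis (33.8% and 28.8%). Of 16 other reported target genes, all found, 5 rose and 6 fell in mitosis without IP (median -0.16), shares near the 26.2% and 25.5% of all genes. IGFBP3, an insulin-like growth factor binding protein gene, rose by 1.40 and the RNA-binding protein gene RBMS3 by 1.55, while GADD45A, a stress-response gene, fell by 1.01. On the log2(FPKM + 1) scale the most negative value of the 16 was thus -1.01, next to -2.09 for CTGF. With length and GC trends removed, 4 were higher and 5 lower (26.7% and 25.6% of all genes). IGFBP3 was then at 1.55, RBMS3 at 1.25 and GADD45A at -0.64. TGFB2 was then lowest of the 16 at -1.20, next to -1.89 for CTGF. NUAK2 went from 1.35 and 0.726 FPKM in interphase to 0.186 and 0.178 FPKM in mitosis (-0.77, limma adjusted p = 0.00183). The scale understates changes at such low levels, so the ranking holds for this scale only. For the difference of the IP effect 1 of the 16 was higher and 7 lower (27.2% and 19.9% of all genes), with ASAP1 at -2.09, MYOF at -1.98 and TGFB2 at -1.43. ANKRD1 stood at -2.17 in the same comparison. With the trends removed 0 of the 16 were higher and 8 lower (22.3% and 20.8% of all genes). ASAP1 was then at -1.69 and MYOF at -1.64, next to -2.47 for ANKRD1.

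**Figure D5:**
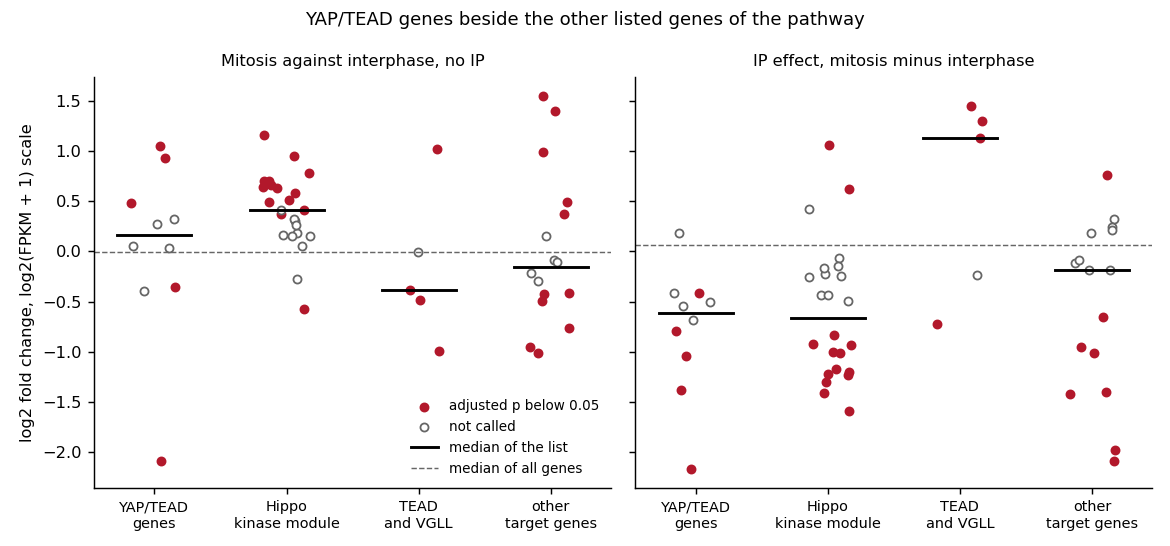
log2 fold changes of the 10 genes and of the 3 pathway lists (24, 5 and 16 genes) for mitosis against interphase without IP (left) and for the effect of the IP in mitosis minus interphase (right), 1 point per gene. Filled points are called at an adjusted p below 0.05, black bars are list medians and the dashed line is the median of all genes; the list medians on the left run from -0.38 for the TEAD and VGLL genes to 0.41 for the Hippo module.

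Genes with the most similar pattern were sought over the 8 libraries, by Pearson's r of log2(FPKM + 1) among 11261 genes with a mean of at least 1 FPKM. Libraries of a group share that pattern, so r describes the 4 groups more than 8 independent points. Closest to CTGF were LBH (r = 0.990), RGS4 (0.986) and PGPEP1 (0.986). LBH had 105 and 91.4 FPKM in interphase and 20.1 and 8.02 FPKM in mitosis without IP. Closest to CYR61 were CUX1 (0.941), C9orf91 (0.935) and KAZN (0.922). For YAP1 they were TBL1XR1, SPOPL and UHMK1 (0.999, 0.999 and 0.998), 3 genes that were also high in the IP of both phases. UHMK1, for example, had 78.1 and 77.7 FPKM in interphase without IP and 483 and 538 FPKM in the IP.

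Some values could include reads of other genes. None of the 10 genes shares its interval in the table with another gene of the table. The interval there is clearly shorter than that of GENCODE for AMOTL1 (chr11:94768341-94876753) and for WWTR1 (chr3:149517234-149703273). In GENCODE, exons on the opposite strand overlap CTGF, AXL, AMOTL1, YAP1 and WWTR1 (for WWTR1, those of WWTR1-AS1), and a pseudogene, RPL39P5, overlaps AMOTL2 on the same strand. The libraries were directional, but whether the counting used strand is not given in the sources used here, so such reads cannot be told apart.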

How the data were processed

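The 8 libraries were made from hTERT-RPE1 RNA depleted of ribosomal RNA with a directional kit, per the labels' protocols. The authors deposited FPKM values for each library and gene on hg38, per the file headers; TopHat and StringTie are named in the submitters' processing notes, without version or role. A second deposited table, of lncRNA features on hg19 without gene names, was not used. Relative depths came from the most common ratio of values below 0.5 FPKM (42 to 123 genes per library on the step). Genes were matched to GENCODE release 29 (GRCh38, the assembly of hg38) by symbol (12678) or synonym (459), with 334 unmatched.

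The test was limma 3.58.1 in R 4.3.3 (eBayes with trend) on log2(FPKM + 1) over all 13471 genes, with 4 group coefficients, without a filter or replicate block (4 residual degrees of freedom). This scale understates changes of genes near 1 FPKM. P-values were adjusted by Benjamini-Hochberg within each of 4 comparisons, and genes with a value below 0.05 count as called. The scripts were tested on simulated data. Trends with length and GC content were removed in an alternative with natural splines on each library's deviations from the gene means. Alternatives also covered the pseudocount, a filter, scaling, the samples fitted, the replicate block and each library left out.

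The 10 genes, the gene lists and the comparisons were chosen with earlier results of these data known. All 10 genes are named. From each pathway list, up to 3 called genes with the largest absolute log2 fold change per comparison are named, plus 8 close relatives. SAV1, WWC3 and NUAK2 are named outside this rule, after their values were seen. The 3 genes most correlated with CTGF, CYR61 and YAP1 are also named.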

Additional observations from a re-analysis of the deposited data

Results flagged for a closer look

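The effect of the IP differed between interphase and mitosis in 5 of the 10 genes, by the interaction test in limma with adjustment over all genes, of which 47.1% were called. The log2 effect in mitosis minus that in interphase was -2.17 for ANKRD1, -1.38 for LATS2, -1.04 for WWTR1, -0.79 for TEAD1 and -0.42 for YAP1. With length and GC trends removed, the differences of TEAD1 (-0.23, adjusted p = 0.318) and YAP1 (-0.058, adjusted p = 0.758) no longer passed. Same-numbered pairs of libraries had the same direction for ANKRD1, whose ratios of IP to no IP were 0.990 and 1.16 in interphase and 0.239 and 0.232 in mitosis. For LATS2 they were 1.34 and 1.17 in interphase and 0.448 and 0.394 in mitosis.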

How the results depend on the processing

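Of 470 log2 fold changes recomputed for single genes under the alternatives, 398 kept their direction and their side of the threshold, 25 lost the call, 23 gained it and 24 changed sign, of which 1 was a called value (AXL in the interphase IP, 0.31 after quantile normalization). The counts of all genes called stayed within 1.5 times of those given under every alternative run. So did the counts among the 10 genes, except mitosis against interphase without IP, where leaving out 1 library gave 3 to 5 calls against 5; it gave 3 without interphase replicate 2 (AMOTL1 and WWTR1 lost) and 3 without mitosis replicate 1 (the same 2 lost). Leaving out a library gave 4 to 5, 6 to 8 and 4 to 6 calls for the interphase IP, the mitotic IP and the interaction. With the replicate block 6, 6, 8 and 6 of the 10 genes were called in the 4 comparisons, against 5, 5, 7 and 5. Calls over all genes also rose with the block. They went from 6963 to 7577 for the phases without IP, from 10051 to 10374 for the interphase IP and from 8694 to 9099 for the mitotic IP. Among the 10 genes, the calls gained were YAP1 without IP (adjusted p = 0.0462) and AMOTL2 in the interphase IP (0.0172). CYR61 in the mitotic IP (0.00915) and AMOTL1 for the interaction (0.0176) were gained too. The labels do not say that same-numbered libraries belong together, although the deposited table holds ratios of them; their deviations correlated at 0.088 to 0.528 between groups.

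The other changes of sign were of values that had not passed the test. For mitosis against interphase without IP, AXL was -0.021 with length and GC trends removed and -0.0209 with median centring, and AMOTL2 was -0.00059 with the trends removed, -0.044 with median centring and -0.077 with quantile normalization. In the interphase IP, the removal of the trends gave 0.56 for CTGF, 0.60 for CYR61 and 0.21 for AMOTL2, and CYR61 was 0.10 with median centring and 0.0504 with quantile normalization. For the interaction, CTGF was -0.31 with the trends removed. Leaving out a library gave ranges that crossed 0 without IP for AXL (-0.039 to 0.16), AMOTL2 (-0.27 to 0.34) and ANKRD1 (-0.0034 to 0.64). In the interphase IP they were -0.12 to 0.073 for CYR61 and -0.017 to 0.21 for ANKRD1, and for CTGF -0.49 to 0.52 in the mitotic IP and -0.32 to 0.69 for the interaction. The cause was not tested. Median centring moved the median of all genes in the interphase IP from 0.017 to 0.14.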
